A study of Drosophila melanogaster with 80 samples.

Results

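The seminal fluid protein genes of Drosophila melanogaster were followed in whole adult males. Constant males were held at 19 °C, and fluctuating males went through a cycle around that mean with an amplitude of 8 °C, with a high point of 27 °C and a low point of 11 °C. Genes were taken by name: 45 of the 17697 genes in the count table carry a FlyBase symbol that starts with Acp or Sfp followed by a digit (the adult cuticle genes Acp1 and Acp65Aa left out), and the 42 with a mean of at least 1 CPM (count per 1000000 counts) over the male libraries were kept. Of the 42, 17 are Acp genes and 25 are Sfp genes. The values just inside and outside the limit were 3.52 CPM for Acp98AB, 0.862 for Sfp96F and 0.842 for Sfp33A4, and Sfp79B stood at 0.155.

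Sampling took place at the high or the low point after 6 or 12 cycles, within 13 days of adult treatment, which gives 8 groups by regime, point and cycles. Constant males were sampled at the same points, so their high and low groups share the temperature of 19 °C and differ in the time of sampling. All flies got fresh food on every second day. Strain, age at the start, mating state and the number of flies per library are unstated in the labels used here, and nothing beyond the word biological says whether the 4 replicates of a group came from separate vials. The p-values therefore measure the spread between these libraries.

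Seminal fluid proteins are made mainly in the paired accessory glands of the male, whose epithelium holds many main cells and a few secondary cells. They pass to the female at mating, where single proteins are known to act on ovulation, sperm storage, receptivity and proteolysis. Because a whole male was sequenced, a lower level may come from fewer gland cells or from less RNA per cell, and these cannot be told apart.

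The male libraries held 87.1 to 122.6 M counts (M is 1000000; median 99.9). Replicate 2 of the constant low males at 6 cycles was left out. In that library 9 female markers (yolk, eggshell and maternal genes) summed to 17289 CPM, against 8.98 to 195 CPM in the other male libraries and 8451 to 38437 in females. Its seminal fluid genes were below those of all 3 group mates in 38 of 42 cases, at a median ratio of 0.700. That leaves 31 male libraries, 3 in constant low males at 6 cycles and 4 in every other group.

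The 42 genes took 0.356% to 0.995% of all counts in a male library, with a mean sum of 6180 CPM. Sfp87B (chromosome 3R, 12273126 to 12273521, + strand, BDGP6.54), Acp36DE (2L, 18356047 to 18359028, - strand) and Sfp60F (2R, 25172245 to 25172695, - strand) made up 45.7% of that sum, at means of 1391, 767 and 666 CPM. Per kilobase of exon the order differed. Sfp87B stayed first at 3513 CPM per kb and Sfp60F followed at 1668, while Acp54A1 (2R, 17133445 to 17133750, + strand) came next at 843 and Acp36DE, whose product is needed for sperm storage, stood at 263. Acp26Aa, which encodes the ovulation-stimulating protein ovulin, was at 150 CPM per kb, the trypsin inhibitor gene Acp62F at 301, the serpin gene Acp76A at 44.7 and the lectin gene Acp29AB at 37.8.

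In both other stages the genes lay near the floor. Their sum was 1.82 to 12.3 CPM over the 32 female libraries (median 6.10) and 3.05 to 14.8 over the 16 larval libraries (median 5.38), and 0 of the 42 had a median of 1 CPM or more in either. The highest median in females was that of Sfp87B, 0.993 CPM, and in larvae that of Sfp23F, 0.974 CPM. Because the genes were kept by their level in males, a difference between sexes or stages was not tested.

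By position 22 of the 42 genes lie on 2L, 8 on 2R, 7 on 3L and 5 on 3R, and several sit in tight groups. Sfp24Ba, Sfp24Bd, Sfp24Bb and Sfp24Bc share 2605 bp of 2L (3667977 to 3670581, all - strand). Sfp26Ac, Acp26Ab and Acp26Aa lie within 2L 5884350 to 5893896, and Sfp53D, Acp53C14a, Acp53C14b, Acp53Ea and Acp53C14c within 2R 16744295 to 16751495. Acp95EF lies wholly inside exons of Spase22-23 on the other strand, and the labels do not say whether strand was used in counting, so its counts are uncertain.

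**Figure D1:**
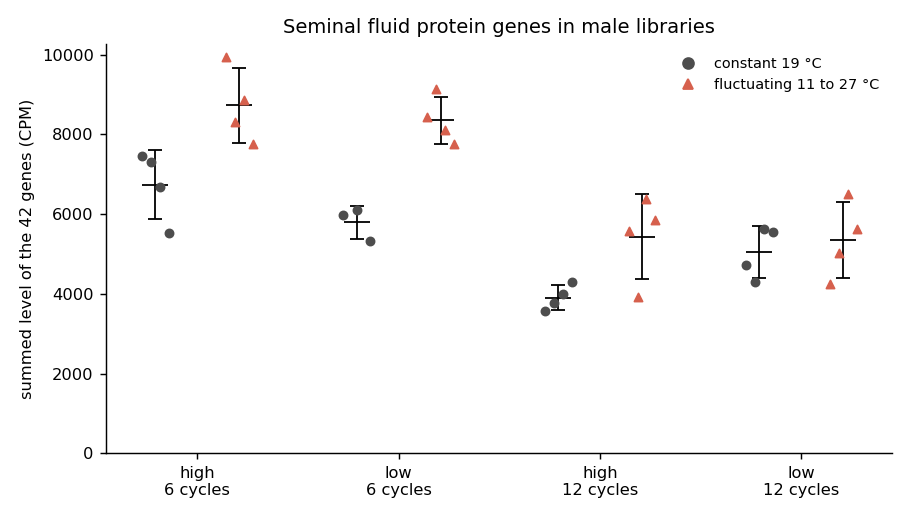
Summed level of the 42 seminal fluid protein genes (CPM, axis from 0) in each of the 31 male libraries, grouped by point and cycles; circles are constant and triangles fluctuating males, and bars are the mean ± SD. At 6 cycles every fluctuating library lies above every constant library of its point, and at 12 cycles the groups overlap at both points.

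The mean summed level was higher in fluctuating than in constant males and lower at 12 than at 6 cycles, and these sums were not tested. At the high point and 6 cycles it was 8724 ± 933 CPM in fluctuating males against 6739 ± 869 in constant males (SD, n = 4 each), and at the low point 8359 ± 589 (n = 4) against 5795 ± 421 (n = 3). After 12 cycles it was 5431 ± 1064 against 3903 ± 317 at the high point and 5352 ± 955 against 5045 ± 646 at the low point (n = 4 each). At 6 cycles the fluctuating libraries started at 7759 CPM at the high point, above the highest constant library at 7446, and at 7754 against 6100 at the low point. At 12 cycles the ranges overlapped, 3912 to 6375 against 3560 to 4296 at the high point and 4251 to 6509 against 4294 to 5620 at the low point. Between cycle numbers the constant low libraries overlapped, with 5314 to 6100 CPM at 6 and 4294 to 5620 at 12 cycles. Without Sfp87B, Acp36DE and Sfp60F the sums at 6 cycles were 4741 ± 571 against 3678 ± 474 and 4301 ± 352 against 3081 ± 311. At 12 cycles they were 3043 ± 492 against 2303 ± 176 at the high point and 2969 ± 429 against 2666 ± 286 at the low point, with overlapping ranges.

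The first comparison asked how males at the warm and at the cool end of the cycle differ from males held at the mean temperature, with both cycle numbers averaged. All 42 genes passed the filter on low counts and entered edgeR's quasi-likelihood test, whose p-values were adjusted after Benjamini and Hochberg over 15945 genes and read at a threshold of 0.05. At the high point 23 rose under fluctuation and 1 fell. Over all genes tested 18.2% were higher and 19.7% lower, 37.9% in all. The median log2 fold change was 0.35 over the 42 genes and -0.00 over all genes. At the low point 25 rose and 0 fell, against 12.3% higher, 15% lower and 27.3% either way of all genes, with a median of 0.36 against 0.00. The high and the low point have no library in common: 33 genes had a positive change at both and 18 rose at both. At neither point was a change called for 11 genes, among them the ovulin gene Acp26Aa. For these joint counts the share of all genes is not given, so they only describe the 42 genes.

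**Figure D2:**
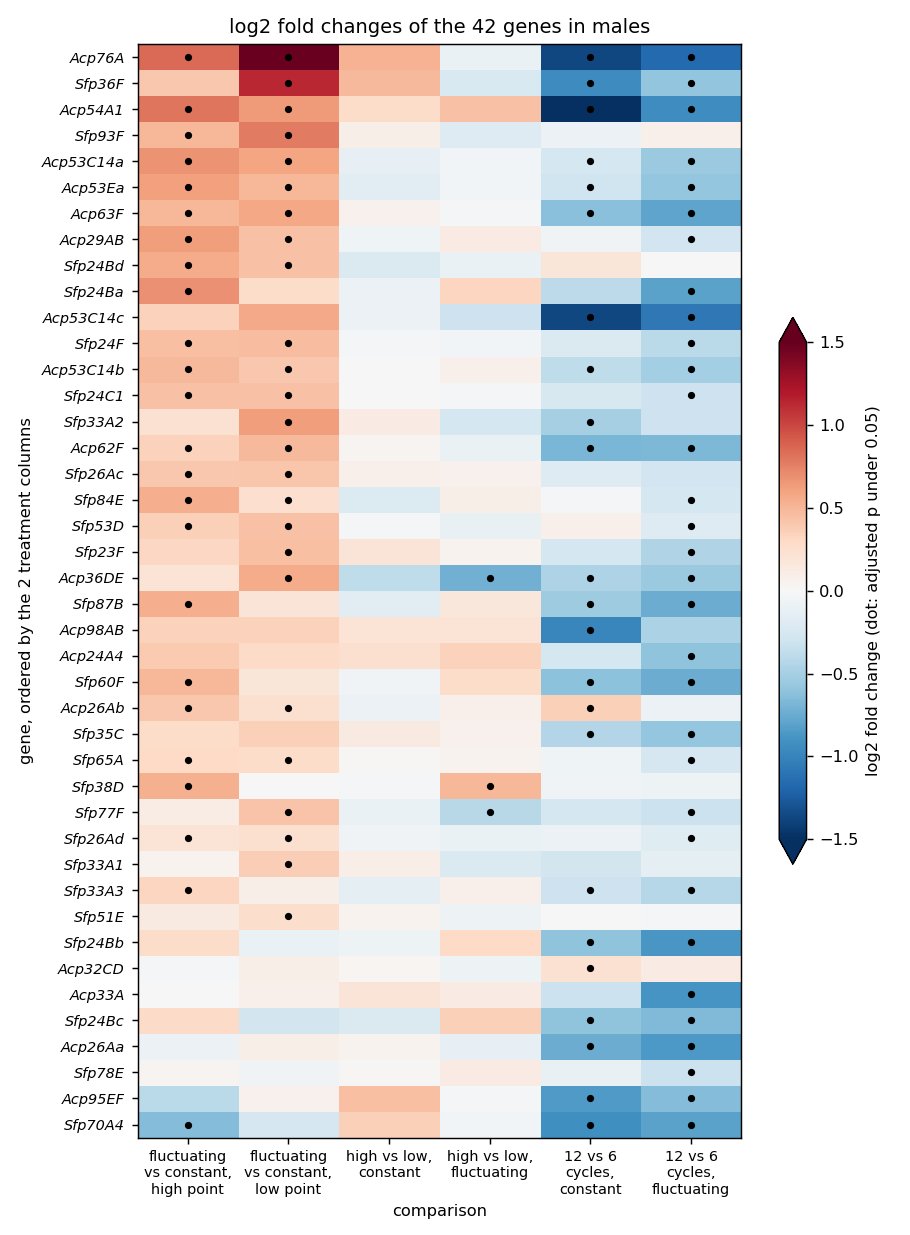
log2 fold changes of the 42 genes (rows, ordered by the 2 treatment columns) in 6 comparisons among males; the colour scale is in the key, and a dot marks an adjusted p under 0.05. The treatment columns are mostly red, the 12 against 6 cycles columns mostly blue, and the high against low columns carry 0 and 3 dots.

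Acp76A (3L, 19050757 to 19052026, - strand) encodes a serpin, a kind of protease inhibitor that passes to the female. At the high point its level ran from 16.4 to 85.9 TMM-scaled CPM in the 8 constant libraries (median 31.3) and from 21.3 to 126.5 in the 8 fluctuating ones (median 63.5). The ranges overlap, also within each cycle number: at 6 cycles 85.9 was the highest constant and 74.3 the lowest fluctuating value, and at 12 cycles these were 27.2 and 21.3. It rose 1.81-fold (log2 fold change 0.86, SE 0.233, adjusted p = 0.00467, edgeR). At the low point the 7 constant libraries ran from 9.18 to 53.5 CPM (median 24.1) and the 8 fluctuating ones from 35.2 to 106.5 (median 75.8). There it rose 2.79-fold (1.48, SE 0.249, adjusted p = 6.57e-05). By cycle number the groups at the low point did not overlap. At 6 cycles the constant libraries stood at 41.8, 53.5 and 25.1 CPM against 101.5, 106.5, 94.7 and 70.5. At 12 cycles they stood at 24.1, 10.02, 17.8 and 9.18 against 35.2, 44.4, 81.1 and 43.7.

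Acp54A1, with 306 bp of exon, rose 1.75-fold at the high point (0.80, SE 0.186, adjusted p = 0.00116) and 1.56-fold at the low point (0.64, SE 0.195, adjusted p = 0.0154). The second call was lost without constant low replicate 4 at 6 cycles. Its difference lay at 12 cycles. There the constant high libraries stood at 85.4, 104.0, 39.4 and 94.8 CPM and the fluctuating ones at 188.9, 152.7, 323.2 and 244.4, with no overlap (1.49, SE 0.268, adjusted p = 2.04e-04). At 6 cycles the groups overlapped, with 514.4, 518.3, 303.2 and 360.6 against 537.3, 397.0, 406.1 and 500.1 CPM (0.12, adjusted p = 0.792).

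Several neighbours on 2R moved by like amounts. Acp53C14a was at 321.8, 306.1, 303.2 and 262.2 CPM in the constant high libraries at 6 cycles and at 563.4, 498.4, 495.6 and 402.1 in the fluctuating ones, which did not overlap. It rose by 0.68 at the high point (SE 0.091, adjusted p = 1.69e-06) and by 0.59 at the low point (SE 0.096, adjusted p = 4.03e-05). Acp53Ea rose by 0.61 and 0.50 and Acp53C14b by 0.49 and 0.40 (adjusted p from 2.16e-05 to 0.00295). Sfp53D at one end of the group rose by 0.35 and 0.44 (adjusted p = 5.38e-05 and 1.21e-05). It belongs to the 42 genes but was not picked by the rule for genes to describe, and was added after its values were seen. Acp53C14c at the other end had 0.35 and 0.57 and did not pass (adjusted p = 0.372 and 0.169). Its spread between libraries of a group was the widest of the 42 genes, an SD of 0.634 on the log2 scale, where the median of the 42 was 0.246. No gene of this group passed at the low point after 12 cycles alone.

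**Figure D3:**
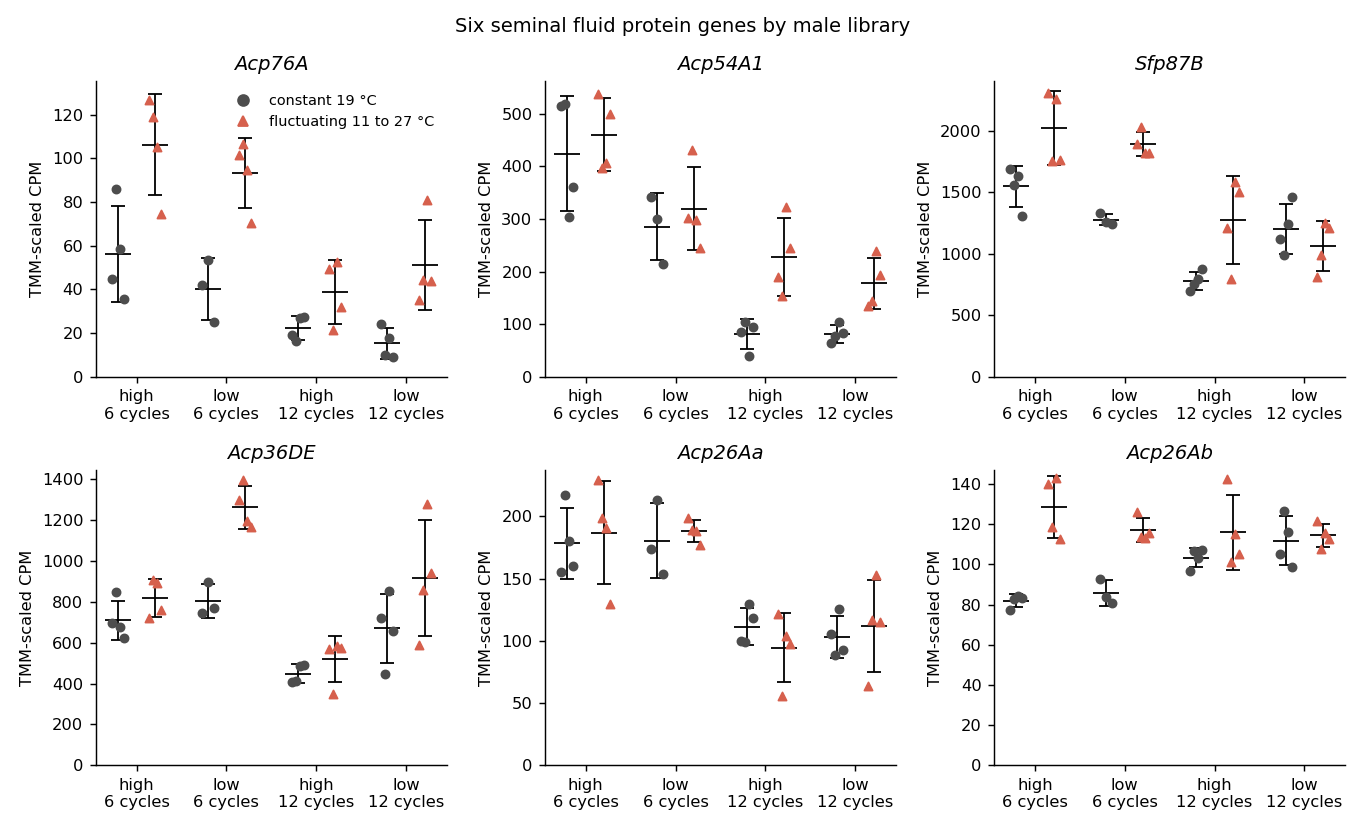
TMM-scaled CPM of Acp76A, Acp54A1, Sfp87B, Acp36DE, Acp26Aa and Acp26Ab in each male library by point and cycles (axes from 0); circles are constant and triangles fluctuating males, bars are the mean ± SD. Acp54A1 separates the regimes at 12 cycles and not at 6, while the ovulin gene Acp26Aa overlaps between regimes in all 4 pairs.

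Of the genes with known roles in sperm storage, Acp29AB, whose lectin helps keep sperm in store, rose at both points (0.62, SE 0.076, adjusted p = 3.99e-07 at the high and 0.44, SE 0.080, adjusted p = 1.5e-04 at the low point). At the high point it ran through 27.3, 27.5, 26.0 and 22.7 CPM in constant males at 6 cycles and 41.4, 40.1, 38.8 and 37.0 in fluctuating males, without overlap. Acp36DE rose at the low point by 0.55 (SE 0.137, adjusted p = 0.00325). At 6 cycles it was at 744.3, 897.6 and 766.9 CPM in constant low males and at 1298, 1392, 1193 and 1163 in fluctuating low males. At the high point its change of 0.21 did not pass (adjusted p = 0.218), and the difference between both points, -0.34, did not pass either (SE 0.188, adjusted p = 0.211). At the low point after 12 cycles alone neither Acp29AB nor Acp36DE passed.

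Among the other protease-related genes Acp62F, a trypsin inhibitor, rose by 0.35 (SE 0.111, adjusted p = 0.015) and 0.49 (SE 0.117, adjusted p = 0.00233). Semp1, a seminal metalloprotease that takes part in cutting ovulin and Acp36DE in the mated female, stands outside the 42 genes. It rose 1.82-fold at the high and 2.54-fold at the low point (0.87 and 1.35, adjusted p = 7.06e-04 and 1.74e-05), at 1.51 to 10.4 CPM. The substrate gene Acp26Aa had -0.08 and 0.09 (SE 0.149 and 0.156, adjusted p = 0.701 and 0.714). It stood at 155.2, 217.3, 180.5 and 160.3 CPM in constant high males at 6 cycles and at 228.9, 198.8, 190.9 and 129.7 in fluctuating ones. Its neighbour Acp26Ab, the next gene on the same strand, rose by 0.41 and 0.24 (SE 0.064 and 0.067, adjusted p = 1.44e-05 and 0.00801).

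Of the 3 most abundant genes Sfp87B and Sfp60F rose at the high point, while Acp36DE did not pass there. Sfp87B ran from 694.3 to 1691 CPM in constant males there (median 1093) and from 792.4 to 2308 in fluctuating males (median 1671). It rose by 0.55 (SE 0.113, adjusted p = 3.66e-04). At the low point its change of 0.20 did not pass (SE 0.117, adjusted p = 0.228). Sfp60F had 0.50 (SE 0.135, adjusted p = 0.00438) and 0.18 (adjusted p = 0.385). The difference between both points passed for neither gene (0.35 for Sfp87B, adjusted p = 0.127; 0.32 for Sfp60F, adjusted p = 0.264).

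Other Sfp genes are known chiefly as proteins found in transferred seminal fluid. Sfp93F rose by 0.49 and 0.77 (SE 0.110 and 0.115, adjusted p = 7.59e-04 and 1.35e-05), Sfp36F by 1.12 at the low point (SE 0.247, adjusted p = 0.00111) and Sfp33A2 by 0.63 there (SE 0.191, adjusted p = 0.0151), a call lost without constant low replicate 1 at 6 cycles. Sfp36F and Sfp33A2 are low genes, at means of 4.64 and 4.57 CPM. In the 24B group Sfp24Ba rose at the high point (0.68, SE 0.156, adjusted p = 0.00105), while Sfp24Bb of the same group had 0.27 and -0.10 (adjusted p = 0.123 and 0.645). Of the same group Sfp24Bd rose at both points (0.555 and 0.435), and Sfp24Bc passed at neither (0.292 and -0.279). Sfp24Bb, Sfp24Bd and Sfp24Bc were not picked by the rule for genes to describe in these comparisons, and were added after their values were seen. Sfp70A4 fell at the high point (-0.65, SE 0.199, adjusted p = 0.0112). It stood at 6.39, 6.33, 6.01 and 6.48 CPM in constant high males at 12 cycles and at 4.48, 2.59, 4.80 and 3.08 in fluctuating ones, without overlap.

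Split by cycle number, the treatment raised 15 genes at the high point after 6 cycles, 17 there after 12, 24 at the low point after 6 and 4 after 12, and lowered 0 in each. Of all genes 11.2%, 11.1%, 9.7% and 6.11% were higher, in the same order, 12.5%, 11.8%, 11.4% and 8.48% were lower, and 23.7%, 22.9%, 21.1% and 14.6% were called either way. All 4 comparisons were positive for 26 of the 42 genes, and 11 genes rose in at least 3 of them. Those joint counts also come without a share of all genes. The 4 genes called at the low point after 12 cycles are Acp76A (1.74, SE 0.338, adjusted p = 6.72e-04), Acp54A1 (1.12, adjusted p = 0.00451) Sfp36F (1.17, adjusted p = 0.0174) and Sfp93F (0.70, adjusted p = 0.0023). Single libraries move these counts. The 24 genes became 9 without constant low replicate 4, 14 without constant low replicate 1 and 12 without fluctuating low replicate 2. The 15 became 9 without constant high replicate 4, the 17 became 11 without constant high replicate 5, and the 4 became 11 without fluctuating low replicate 5.

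The test of the treatment effect at the high against that at the low point called 1 of the 42 genes, against 12.7% higher, 10.8% lower and 23.5% either way of all genes. It was Sfp38D (2L, 20640917 to 20642216, + strand; 0.54, SE 0.142, adjusted p = 0.00566). In fluctuating males this gene stood at 10.1, 9.58, 8.59 and 9.20 CPM at the high point and at 7.32, 7.13, 6.67 and 5.83 at the low point after 6 cycles. After 12 cycles it was at 9.37, 8.84, 8.72 and 9.26 against 5.96, 5.0, 8.30 and 5.83. The high and low groups did not overlap. Without fluctuating high replicate 6 at 12 cycles 5 genes were called.

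Constant males at both points differ by design in the time of sampling. None of the 42 genes passed edgeR's test there (0 higher and 0 lower, 5 at an unadjusted p under 0.05, 1 by DESeq2), against 3.31% higher, 4.16% lower and 7.46% either way of all genes. In fluctuating males 1 gene was higher and 2 were lower at the high point, against 18.5% and 15.8% of all genes (34.3% either way). Sfp38D was the higher one (0.50, SE 0.098, adjusted p = 1.58e-04). Acp36DE was lower by 0.72 on the log2 scale at the high point (-0.72, SE 0.131, adjusted p = 6.28e-05), at 720.6, 906.0, 889.8 and 756.9 CPM against 1298, 1392, 1193 and 1163 after 6 cycles, with no overlap. Sfp77F was lower by 0.42 (-0.42, SE 0.110, adjusted p = 0.00356). Without fluctuating high replicate 6 at 12 cycles 11 genes were called and without fluctuating low replicate 7 at 12 cycles 6 were.

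The last comparison set 12 against 6 cycles within each regime, with both points averaged. The groups differ in age as well as in time under treatment, which cannot be told apart here. In constant males 21 genes fell and 2 rose, against 16.4% lower, 17.7% higher and 34.1% either way of all genes, with a median log2 fold change of -0.30 against -0.01. In fluctuating males 32 fell and 0 rose, against 17.2% lower, 16.9% higher and 34.1% either way of all genes, with a median of -0.49 against 0.01. Both regimes share no library, and 19 genes fell in both while 37 had a negative change in both. Here too the share of all genes alike in both regimes is not given.

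Acp54A1 fell most in constant males (log2 fold change -2.10, SE 0.197, adjusted p = 1.11e-08). It ran from 215.2 to 518.3 CPM at 6 cycles (median 340.8, n = 7) and from 39.4 to 104.9 at 12 cycles (median 84.0, n = 8), without overlap. In fluctuating males it fell by 0.93 (SE 0.187, adjusted p = 3.49e-04), and the difference between the regimes passed (1.16, SE 0.267, adjusted p = 0.0437). That last call was lost without any of 21 of the 31 libraries, each left out alone. Acp76A fell in both regimes, from a median of 44.7 to 18.4 CPM in constant males (-1.36, SE 0.243, adjusted p = 9.52e-05) and from 103.4 to 44.0 CPM in fluctuating males (-1.16, SE 0.234, adjusted p = 3.64e-04). Acp53C14c fell by 1.37 and 1.07 (adjusted p = 9.36e-04 and 0.00539). It was at 7.60, 0.527, 7.46 and 5.66 CPM in constant high males at 12 cycles, 1 of these libraries far below the rest.

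The ovulin gene Acp26Aa, which did not pass between regimes, fell with cycles in both (-0.74, SE 0.155, adjusted p = 5.14e-04 and -0.86, SE 0.150, adjusted p = 7.4e-05). Constant males ran from 153.8 to 217.3 CPM at 6 cycles and from 88.4 to 129.3 at 12, and those ranges did not overlap. Its neighbour Acp26Ab went the other way in constant males, from a median of 83.5 to 106.0 CPM (0.36, SE 0.067, adjusted p = 1.54e-04). In fluctuating males Acp26Ab had medians of 116.9 and 113.7 CPM (-0.09, adjusted p = 0.299). The difference between the regimes passed for it (-0.45, SE 0.093, adjusted p = 0.0249), and the call was lost without any of 5 libraries, each left out alone: constant low replicate 4 at 6 cycles, fluctuating high replicates 7 and 8 and fluctuating low replicates 6 and 8 at 12 cycles. Over all genes 0.314% were higher, 0.169% lower and 0.483% called either way in that test, and with the left-out male library put back 0 of the 42 genes passed it.

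Acp32CD was the other gene to rise in constant males (0.23, SE 0.067, adjusted p = 0.00914), and in fluctuating males it had 0.12 (adjusted p = 0.157). It belongs to the 42 genes but was not picked by the rule for genes to describe, and was added after its value was seen. The abundant Sfp87B fell by 0.54 and 0.75 (adjusted p = 7.34e-04 and 1.42e-05), Sfp60F by 0.62 and 0.74 (adjusted p = 0.00118 and 1.3e-04) and Acp36DE by 0.46 and 0.56 (adjusted p = 0.00919 and 0.00152). Acp33A fell in fluctuating males (-0.89, SE 0.167, adjusted p = 1.79e-04) and had -0.32 in constant males (adjusted p = 0.157). Sfp24Bb fell in both (-0.60 and -0.88, adjusted p = 0.00168 and 2.2e-05). Acp98AB, Sfp36F and Sfp70A4 fell by 0.98, 0.94 and 0.92 in constant males (adjusted p = 0.00393, 0.00339 and 0.00104).

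Other genes linked to seminal fluid or the male tract were read from lists, and some of them are not limited to males. Of 18 further seminal protein and sex peptide network genes 6 rose and 5 fell under fluctuation at the high point. These are 33.3% and 27.8%, against 18.2% and 19.7% of all genes. At the low point 6 rose and 0 fell (33.3% and 0%, against 12.3% and 15%). At 12 cycles 8 fell and 1 rose in constant males (44.4% and 5.56%, against 16.4% and 17.7%). In fluctuating males 8 fell and 2 rose with cycles (44.4% and 11.1%, against 17.2% and 16.9%). SP, the sex peptide that lowers the female's readiness to remate, had 0.22 and 0.30 under fluctuation (adjusted p = 0.389 and 0.286) and fell with cycles in constant males (-0.62, SE 0.199, adjusted p = 0.0159). The network lectins lectin-46Cb and lectin-46Ca fell at the high point (-0.58 and -0.46, adjusted p = 5.43e-08 and 1.34e-06), opposite to most of the 42 genes, and frma rose there (0.67, adjusted p = 1.84e-07). Mst57Db fell most with cycles (-1.09 and -0.92, adjusted p = 7.37e-04 and 0.00266). Of 3 regulators known in the accessory gland, the homeobox genes dve (-0.54 and -0.70, adjusted p = 1.09e-05 and 1.06e-06) and prd (-0.41 and -0.51, adjusted p = 1.54e-04 and 2.61e-05) fell under fluctuation at both points, and Abd-B had -0.10 and 0.07 and did not pass. Of these regulators dve and Abd-B were also present in females, at 7.23 to 19.8 and 2.04 to 4.72 CPM, so other tissues express them. In females prd was at 0 to 0.0994 CPM. The tissue behind each change in a whole male was not tested.

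Markers of other tissues gave counts of their own. Of 18 testis markers 22.2% rose and 5.56% fell at the high point, against 18.2% and 19.7% of all genes. At the low point 16.7% rose and 5.56% fell, against 12.3% and 15% of all genes. At 12 cycles 0 testis markers rose while 8 fell in constant and 9 in fluctuating males (44.4% and 50%, against 16.4% and 17.2% of all genes), with medians of -0.20 and -0.22. Among the testis markers twe and bol are not limited to males. In unscaled CPM twe was at 74.3 to 120.4 in females against 20.8 to 38.5 in males, and bol at 24.9 to 47.7 in females. The same shares of all genes apply to the next lists, with 17.7% and 16.9% higher at 12 cycles in constant and fluctuating males. Of 3 ejaculatory bulb genes EbpII rose at the high point (0.32), and Ebp and EbpII fell at 12 cycles (by 0.59 and 0.54 in constant and 0.73 and 0.77 in fluctuating males). Of the 9 female markers 5 rose and 1 fell under fluctuation at the high point, 0 passed at the low point, and at 12 cycles 5 rose in constant and 0 passed in fluctuating males. At the high point and 6 cycles their sum was 8.98 to 26.4 CPM in constant and 41.1 to 80.8 in fluctuating males, and at 12 cycles and the high point it was 26.5 to 65.3 in constant and 18.9 to 39.4 in fluctuating males. Of the 3 fat body genes 1 rose and 2 fell under fluctuation at the high point and 1 rose at the low point. At 12 cycles all 3 fell in constant males (log2 fold changes of -5.08 for Fbp1, -2.17 for Lsp2 and -2.07 for Fbp2) and 1 rose in fluctuating males. These changes are averages over both points. In constant low males Fbp1 and Fbp2 were already near the floor at 6 cycles, at 0.163 to 0.353 and 0.364 to 0.448 unscaled CPM. In constant males both were higher at the high than at the low point (4.21 and 1.80, adjusted p = 4.13e-04 and 4.84e-04, edgeR). The dosage compensation RNAs lncRNA:roX1 and lncRNA:roX2 rose under fluctuation at both points (high point 0.35 and 0.88, low point 0.44 and 0.29), and at 12 cycles lncRNA:roX1 rose in constant males (0.30). The part of these shifts in the seminal fluid results was not tested.

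**Figure D4:**
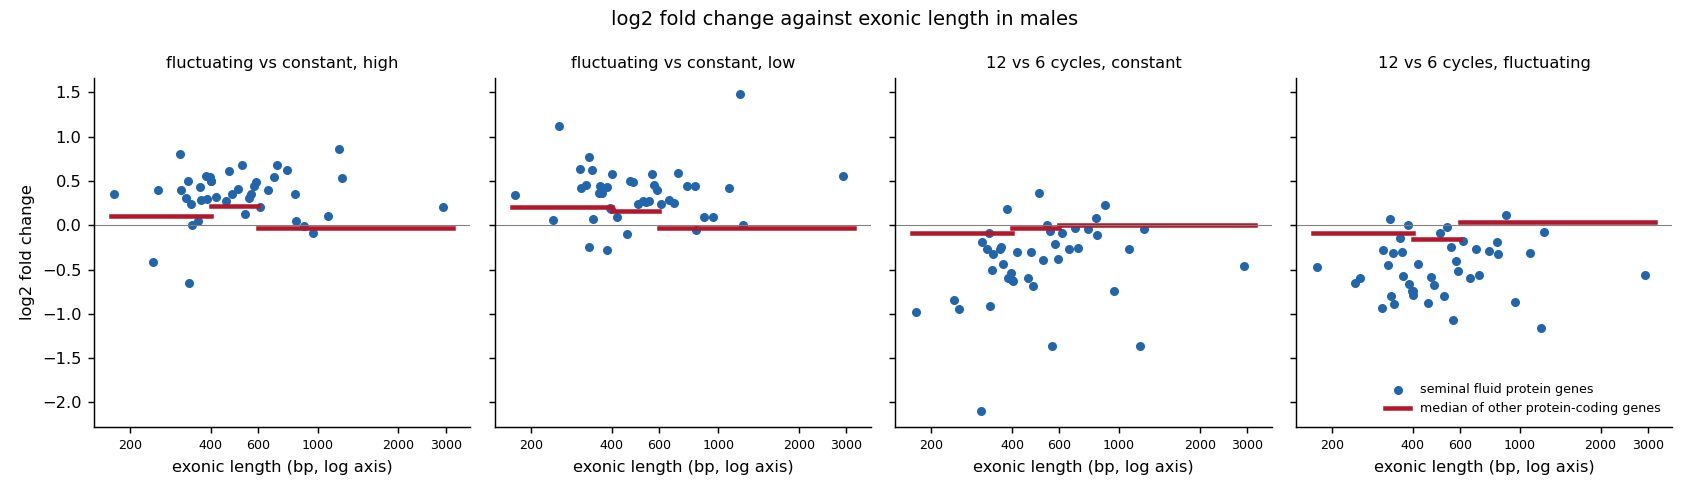
log2 fold change of the 42 genes (points) against exonic length (bp, log axis) in 4 comparisons among males; horizontal bars are the median of other protein-coding genes with up to 400 bp, over 400 to 600 bp and over 600 bp of exon. Most points lie above the bars under fluctuation and below them at 12 cycles, and the bars of short genes shift the same way by less.

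The 42 genes are short, with 175 to 2923 bp of exon (median 473.5), against a median of 1782 bp over the protein-coding genes tested. Short genes as a class shifted too, though less clearly at 12 cycles in constant males. Of 517 other protein-coding genes with more than 400 and up to 600 bp of exon 45.1% were higher at the high point, 29.2% at the low point, and 37.5% were lower at 12 cycles in fluctuating males, where the seminal fluid genes of that length (12) gave 75%, 66.7% and 83.3%. Up to 400 bp, the band that holds Sfp87B, Sfp60F and Acp54A1, 144 other genes gave 20.1%, 20.1% and 22.2%, and the 17 seminal fluid genes 41.2%, 52.9% and 64.7%. Above 600 bp the other genes gave 19.3%, 11.9% and 19.2%, and the 13 seminal fluid genes 53.8%, 61.5% and 84.6%. In constant males at 12 cycles 15.7% of the other genes of 400 to 600 bp were lower against 58.3% of the seminal fluid genes, and 19.4% against 58.8% up to 400 bp. More of those other genes of 400 to 600 bp were higher in that comparison, 20.3%, against 8.33% of the seminal fluid genes. Above 600 bp the gap was smaller there, 19.8% against 30.8%, with a median log2 fold change of -0.114 over the seminal fluid genes of that length. Within the 42 genes Spearman's rho of length with the log2 fold change was 0.058 under fluctuation at the high point, -0.068 at the low point, 0.357 at 12 cycles in constant and 0.14 in fluctuating males, as a description across genes of the same libraries. The part of length in these results was not tested.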

How the data were processed

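RNA of whole animals was selected with oligo(dT) and sequenced, per the labels' protocols. Reads went through FastQC, Trimmomatic, HISAT2 and StringTie with the assembly BDGP6, per the submitters' processing notes; their versions, settings and strand use were not stated. The authors deposited estimated counts per gene, unscaled, which were taken as whole numbers for the tests. Of male values from 1 to 24, 31.1% are multiples of 4 (25% if even), so the real depth may lie below the totals. No 2 libraries of a male group were identical (48 pairs).

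Of 17697 identifiers 17559 matched the BDGP6.54 annotation (Ensembl release 115), which gave symbols, 1-based coordinates and exonic lengths. The 31 male libraries entered 1 fit of 8 groups of edgeR 4.0.16 under R 4.3.3 (quasi-likelihood test with TMM factors from 0.948 to 1.05, filterByExpr with a minimum count of 10), with no covariate and 12 contrasts. All adjusted p-values are Benjamini-Hochberg over 15945 genes. Errors are standard errors (SE) of log2 fold changes. Levels are TMM-scaled CPM, except sums, means over all males and levels in females and larvae, which are unscaled. Spread is the SD of log2(CPM + 0.5). The test was checked on simulated counts with known changes.

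Genes named are, per contrast, up to 6 called members with the largest change, 6 with the highest level and those with known roles, with exceptions stated. Members and lists were chosen with earlier results of these data known. Same-numbered replicates were checked for shared deviations. Of 45 such pairs of libraries 14 correlated above 0.1, against 15 of 135 differently numbered pairs. The rule asked for every same-numbered pair to do so, and by it the numbers were not taken to pair libraries. Missing this strict rule does not show that pairing was absent. Alternatives were the left-out library kept, DESeq2 1.42.0 and its size factors, no count filter, counts divided by 4, the compared groups alone, a replicate block, a mean of at least 10 CPM, and each library left out.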

Additional observations from a re-analysis of the deposited data

Results flagged for a closer look

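In 182 groups of 4 libraries (25 named genes in TMM-scaled CPM and the summed level of the 42, in the male groups with 4 libraries) a library stood apart from the other 3 by Dixon's ratio in 9 cases, and chance flags about 1 in 20 groups. Acp36DE was at 351.2 CPM in fluctuating high replicate 6 at 12 cycles, against 569.3 to 585.3 in the others, and Sfp36F was at 3.27 in the same library against 4.04 to 4.19. Acp26Ab was at 77.2 in constant high replicate 1 at 6 cycles (82.97 to 84.0 in the others) and Sfp84E at 10.2 in replicate 3 of that group (13.3 to 13.5). Sfp36F reached 9.02 in fluctuating low replicate 2 at 6 cycles (5.88 to 6.35). Sfp93F reached 119.4 in fluctuating high replicate 7 at 12 cycles (85.6 to 89.2). In constant low males at 12 cycles Sfp24Ba reached 67.1 in replicate 8 (32.5 to 35.8) and Sfp33A2 was at 1.90 in replicate 5 (3.78 to 4.11). Acp24A4 reached 137.2 in fluctuating low replicate 7 at 12 cycles (82.1 to 86.5).

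Effects differed between groups for 3 genes. For Sfp38D the treatment effect at the high point exceeded that at the low point by 0.54 (adjusted p = 0.00566, edgeR). Between 12 and 6 cycles it differed by -0.45 for Acp26Ab (adjusted p = 0.0249) and by 1.16 for Acp54A1 (adjusted p = 0.0437).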

How the results depend on the processing

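With each library left out in turn, the members called (either direction) ran from 23 to 27 for the treatment at the high point and from 20 to 28 at the low point, 1 to 5 for their difference, 0 to 1 for high against low in constant and 3 to 11 in fluctuating males. They ran from 19 to 27 for 12 against 6 cycles in constant and 25 to 32 in fluctuating males, and 0 to 2 for the difference between 12 and 6 cycles. For the treatment at the high point they ran from 9 to 16 after 6 and 11 to 23 after 12 cycles, and at the low point from 9 to 25 and 3 to 11. Of the called genes 23 of 24 (high) and 18 of 25 (low), and 19 of 23 (constant) and 23 of 32 (fluctuating, 12 cycles), kept the call in each such fit. DESeq2 called 2 genes for the difference between points, 1 for high against low in constant males and 7 for the low point after 12 cycles, and its shares of all genes are not given here. The 34 genes with at least 10 CPM gave 0 for the difference between points, and the left-out male library kept gave 0 for the difference between 12 and 6 cycles.

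By the rule set, which asks for every same-numbered pair to correlate above 0.1, the replicate numbers were not taken to pair libraries (14 of 45 pairs, median 0.052, lowest -0.24, against 15 of 135 differently numbered pairs). Among the 42 genes replicate 4 was the lowest library for most genes in all 4 groups at 6 cycles, and whether same-numbered libraries were handled together was not tested. A fit with the replicate number as a block called 5 genes for the difference between points, 1 for high against low in constant and 5 in fluctuating males, and 9 for the low point after 12 cycles. Shares of all genes called in that fit are not given here, so these counts cannot be set against them. That fit cannot be made for 12 against 6 cycles, nor the compared groups alone for the 2 differences. The cause of these shifts was not tested. Changes that were not called turned sign without 1 library, and over all libraries left out the log2 fold change of Acp26Aa ran from -0.155 to 0.009 at the high point (highest without fluctuating high replicate 6), from -0.029 to 0.209 there after 6 cycles (lowest without fluctuating high replicate 1), and at the low point from -0.04 to 0.2 after 6 (lowest without constant low replicate 4) and from -0.037 to 0.316 after 12 cycles (lowest without fluctuating low replicate 7). That of Sfp60F at the low point after 12 cycles ran from -0.144 to 0.1 (0.095 without constant low replicate 8, 0.1 without fluctuating low replicate 5).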

Other observations

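The libraries of a group ordered alike across the 42 genes. Replicate 4 held the lowest value of its group for 36 genes in constant high, 26 in fluctuating high, 25 in constant low and 30 in fluctuating low males at 6 cycles. At 12 cycles replicate 7 held the highest value for 34 genes in fluctuating high, 25 in constant low and 36 in fluctuating low males, and for 7 in constant high males, where replicate 8 was highest for 22. Fluctuating high replicate 6 held the lowest value for 38 genes and fluctuating low replicate 5 for 32. Exonic length and the spread between libraries of a group had a Spearman's rho of -0.47 over the 42 genes, which share these libraries. The spread ran from an SD of 0.107 on the log2 scale for Sfp78E to 0.634 for Acp53C14c.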
